A study of Sus scrofa with 22 samples.

Results

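The glycogen storage and breakdown genes PYGM, PHKB, GYG1 and PGM1 were followed through pig development. Their probe sets were all those annotated to 1 of these symbols and no other. These 4 genes, of 6765 named in this way on the array, held 7 of the 23999 probe sets tested, 4 for PYGM and 1 for each of PHKB, GYG1 and PGM1. The arrays measured offspring of German Landrace gilts at 4 stages: 94 days after conception (94 dpc, 6 samples) and 1, 28 and 188 days after birth (1 dpn, 6 samples; 28 dpn, 6 samples; 188 dpn, 4 samples). The dams of all 22 samples had received the adequate protein (AP) diet in gestation, so no diet was compared. Each stage drew on 3 gilts, and which animal had which dam is not in the labels.

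Skeletal muscle stores glucose as glycogen, a branched polymer that is built when glucose is plentiful and broken down to fuel contraction. Glycogenin, encoded by GYG1, starts each particle by attaching glucose to itself. Phosphoglucomutase (PGM1) interconverts glucose-1-phosphate and glucose-6-phosphate, and so serves both synthesis and breakdown. Muscle glycogen phosphorylase (PYGM) removes glucose units as glucose-1-phosphate. It is switched on by phosphorylase kinase, whose regulatory beta subunit is encoded by PHKB.

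The sample labels named liver as the tissue, whereas the series title named muscle. Of 10 skeletal muscle markers 7 were measured, all 7 above background, and their summed signal was 171299 to 223672 at 94 dpc, 219374 to 320683 at 1 dpn, 423786 to 487221 at 28 dpn and 405632 to 448332 at 188 dpn. The 9 measured liver markers were also above background, with summed signals of 7503 to 32460, 2116 to 8348, 2309 to 10342 and 1628 to 5843 in the same order. The signals are therefore described as those of a muscle-like tissue. The ratio of 5′ to 3′ signal for GAPDH, a measure of RNA integrity, was 0.731 to 1.26 on the arrays of the other 3 stages. It was 1.14 and 1.15 on replicates 1 and 6 of 1 dpn and 0.140 to 0.332 on replicates 2 to 5, called here the even and the low arrays of 1 dpn. The same ratio for EF1A was 0.90 and 0.79 on the even arrays and 0.10 to 0.15 on the low ones. Its mean also differed between other stages, at 0.90 at 94 dpc, 0.69 at 28 dpn and 0.58 at 188 dpn. Both later stages differed from 94 dpc (exact permutation tests, adjusted p = 0.022 and 0.032). A second GAPDH control pair read 0.67, 0.62, 0.62 and 0.50 on the low arrays, overlapping the 0.58 to 0.67 of 28 dpn. Results of the members that use 1 dpn are given with and without the low arrays, and those of other genes only where stated.

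All 7 probe sets differed between the stages, with 51.4% of all probe sets called by the same limma F test (adjusted p under 0.05). All 154 values lay above a background signal of 95.06 taken from dim control probe sets. Each gene was higher at 28 dpn and 188 dpn than at 94 dpc in every animal. Of all probe sets 13.1% and 13.6% were called higher in these comparisons. How many of all probe sets lack overlap between stages was not counted, here or below. The genes differed in when the signal rose and in whether it still rose after 28 dpn.

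**Figure D1:**
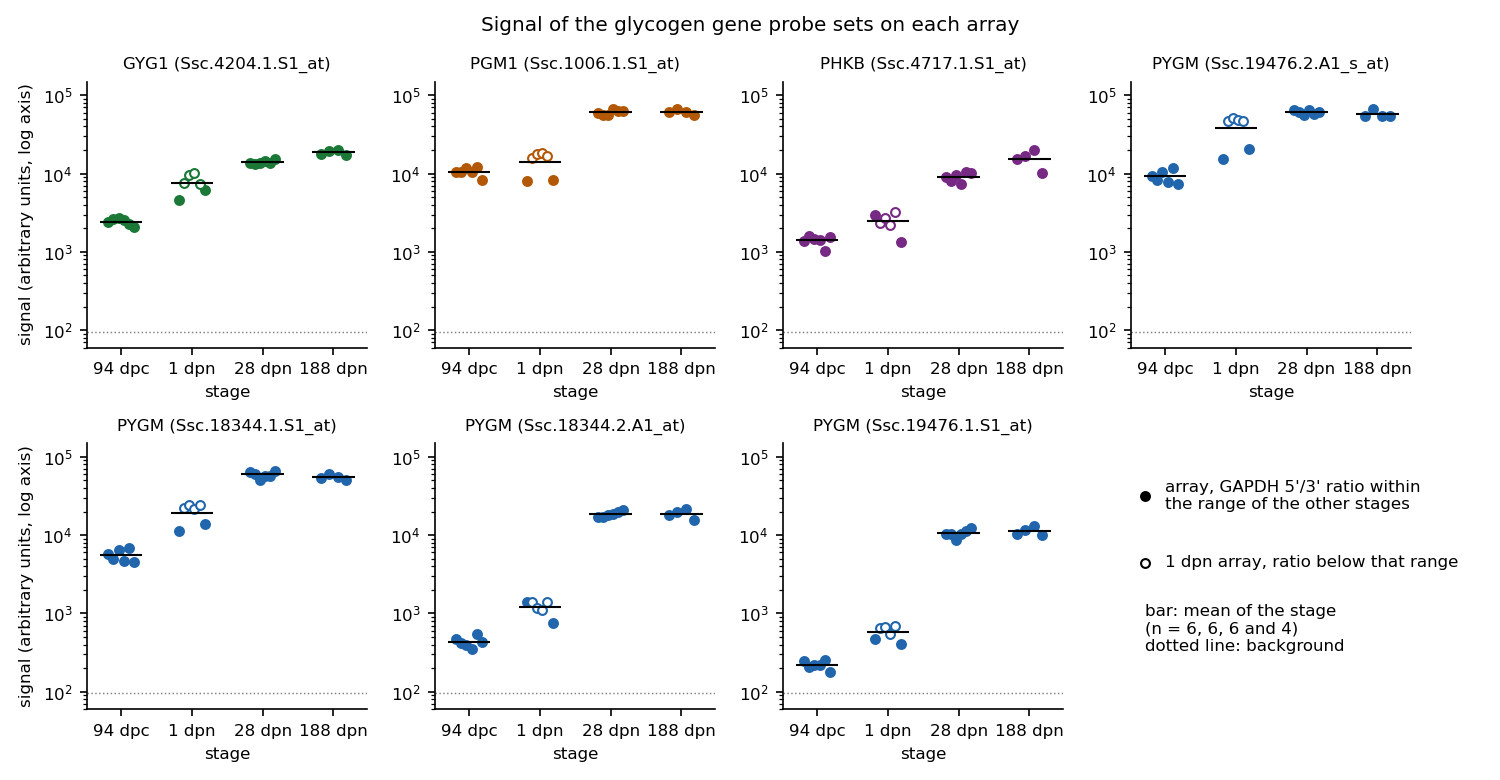
Signal of each of the 7 probe sets on the 22 arrays (arbitrary units, log axis) by stage, with a bar at the mean of the stage and a dotted line at background. At 28 dpn and 188 dpn every point lies above every point of 94 dpc, and the low arrays of 1 dpn (open points) lie above the even ones for PGM1, GYG1 and 3 of the 4 PYGM probe sets.

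GYG1, which primes new glycogen particles, rose from 94 dpc to 1 dpn and again to 28 dpn. Its signal ranged from 2091 to 2740 at 94 dpc (median 2466), from 4570 to 10238 at 1 dpn (median 7547) and from 13221 to 15553 at 28 dpn (median 13809). At 188 dpn it was 17990, 19437, 19913 and 17345. No stage overlapped its neighbour. The rise from 94 dpc to 1 dpn was 3.00-fold (log2 1.59, SE 0.17, adjusted p = 3.23e-07) and that from 1 dpn to 28 dpn 1.92-fold (log2 0.94, SE 0.17, adjusted p = 2.80e-04). From 28 dpn to 188 dpn the difference was 1.32-fold (log2 0.40, SE 0.19, 95% interval 0.01 to 0.79) and did not pass the test (adjusted p = 0.18), although the lowest animal at 188 dpn stood above the highest at 28 dpn. After median centring of the arrays it passed (log2 0.61, adjusted p = 0.0319).

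PGM1, the mutase of both directions, had its rise between 1 dpn and 28 dpn. Its signal ranged from 8209 to 12042 at 94 dpc (median 10443), from 8122 to 18378 at 1 dpn (median 16472) and from 55779 to 65871 at 28 dpn (median 61167). At 188 dpn it was 61885, 67578, 60633 and 55410, within or close to the range of 28 dpn. The step from 1 dpn to 28 dpn was 4.50-fold (log2 2.17, SE 0.20, adjusted p = 1.64e-07), with no overlap between animals. The difference of 1 dpn from 94 dpc was log2 0.37 (SE 0.20, 95% interval -0.04 to 0.78) and did not pass the test (adjusted p = 0.17). The 1 dpn arrays fell apart here: the even arrays read 8122 and 8334, at the bottom of the 94 dpc range, and the low arrays 16003 to 18378, above it. Against 94 dpc the even arrays gave log2 -0.35 (SE 0.17, adjusted p = 0.16) and the low arrays 0.72 (SE 0.13, adjusted p = 1.88e-04). The sign of this step also turned with the scaling, at log2 -0.20 after quantile normalization and 0.63 after median centring. Between 28 dpn and 188 dpn the difference was log2 0.01 (95% interval -0.44 to 0.47).

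PHKB, the beta subunit of phosphorylase kinase, was the one member whose signal was called higher in each of the 3 successive steps. Its signal ranged from 1041 to 1618 at 94 dpc (median 1441), from 1336 to 3242 at 1 dpn (median 2535) and from 7424 to 10333 at 28 dpn (median 9325). At 188 dpn it was 15540, 16922, 19726 and 10143. The first step was 1.70-fold (log2 0.76, SE 0.20, adjusted p = 0.0057), and replicate 6 of 1 dpn lay within the range of 94 dpc. On the even arrays of 1 dpn, which read 2993 and 1336, this step was log2 0.51 (SE 0.28) and was not called (adjusted p = 0.22). The step to 28 dpn was 3.78-fold (log2 1.92, SE 0.20, adjusted p = 9.01e-07), without overlap. Between 28 dpn and 188 dpn PHKB rose 1.67-fold (log2 0.74, SE 0.23, adjusted p = 0.0363), while replicate 4 of 188 dpn stayed within the range of 28 dpn. This last call was lost after quantile normalization (log2 0.66, adjusted p = 0.0649). It was also lost in 6 of the 10 fits that left out 1 sample, those without replicate 1, 2 or 4 of 28 dpn or replicate 1, 2 or 3 of 188 dpn (log2 0.61 and adjusted p = 0.138 without replicate 3 of 188 dpn).

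The 4 probe sets of PYGM, the enzyme that takes glycogen apart, rose together in direction but not in size. Ssc.19476.2.A1_s_at ranged from 7358 to 11836 at 94 dpc (median 8832), from 15425 to 51451 at 1 dpn (median 46988) and from 56787 to 65198 at 28 dpn (median 60630), and at 188 dpn it was 54753, 66346, 54565 and 54328. The suffix _s_at marks a probe set whose probes can match more than 1 transcript. Ssc.18344.1.S1_at ranged from 4542 to 6874 (median 5372), from 11401 to 24149 (median 21682) and from 50808 to 66722 (median 59093) at the same stages, and at 188 dpn it was 53123, 60314, 54664 and 51059. Neither probe set had overlapping animals between 94 dpc, 1 dpn and 28 dpn, and both overlapped between 28 dpn and 188 dpn.

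The other PYGM probe sets had far lower signals at 94 dpc and climbed further. Ssc.18344.2.A1_at ranged from 350 to 540 at 94 dpc (median 425), from 746 to 1398 at 1 dpn (median 1284) and from 17129 to 20847 at 28 dpn (median 18247), and at 188 dpn it was 17937, 19534, 21726 and 15478. Ssc.19476.1.S1_at ranged from 179 to 251 (median 221), from 402 to 690 (median 599) and from 8563 to 12355 (median 10357), and at 188 dpn it was 10254, 11667, 13228 and 9990. Here too the first 3 stages stood apart and the last pair overlapped.

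By 28 dpn the PYGM rise over 94 dpc was 6.68-fold by Ssc.19476.2.A1_s_at (log2 2.74, SE 0.25, adjusted p = 4.00e-08) and 10.8-fold by Ssc.18344.1.S1_at (log2 3.43, SE 0.19, adjusted p = 2.23e-11). It was 41.5-fold by Ssc.18344.2.A1_at (log2 5.38, SE 0.16, adjusted p = 4.00e-16) and 44.5-fold by Ssc.19476.1.S1_at (log2 5.48, SE 0.16, adjusted p = 2.40e-16). So all 4 gave the same direction, and the size depended on the probe set. The gap lay in the step from 1 dpn to 28 dpn, at log2 0.81 (SE 0.25), 1.67 (SE 0.19), 3.96 (SE 0.16) and 4.18 (SE 0.16) in the same order. In the step into 1 dpn the changes were log2 1.93 (SE 0.25), 1.77 (SE 0.19), 1.42 (SE 0.16) and 1.30 (SE 0.16). Their order there was not stable: it was 1.37, 1.37, 1.66 and 1.58 after quantile normalization and 0.97, 1.19, 1.22 and 0.94 on the even arrays of 1 dpn. The within-array tests passed for 1 of the 6 pairs in that step, Ssc.18344.1.S1_at against Ssc.19476.1.S1_at (shift 0.47, exact permutation p = 0.00649, adjusted p = 0.0177), and this shift was -0.21 after quantile normalization.

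**Figure D2:**
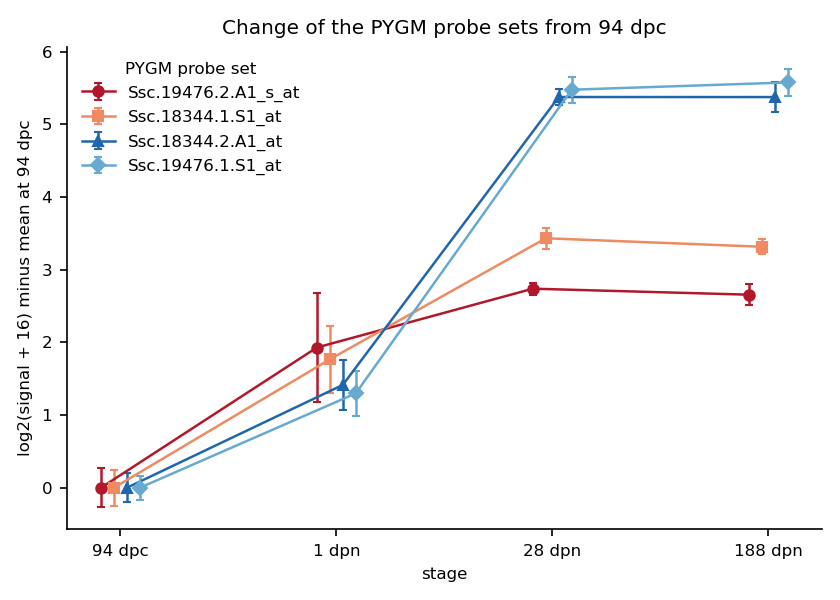
Mean log2(signal + 16) of the 4 PYGM probe sets at each stage, relative to the mean of the same probe set at 94 dpc, with SD bars over 6, 6, 6 and 4 arrays. The 4 lines lie between 1.30 and 1.93 at 1 dpn and separate by 28 dpn into a pair at 5.38 and 5.48 and a pair at 2.74 and 3.43.

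Whether the PYGM probe sets changed alike was tested within arrays, on the log2 difference of each of the 6 pairs in each of 5 comparisons (30 exact two-sided permutation tests, Benjamini-Hochberg adjusted). In 16 of the 30 the difference shifted between stages. The pair of Ssc.18344.2.A1_at and Ssc.19476.1.S1_at was the one for which 0 of 5 tests passed (smallest adjusted p = 0.129, with 0 at an unadjusted permutation p under 0.05). Their difference was 0.92 (SD 0.20) at 94 dpc, 1.04 (SD 0.27) at 1 dpn, 0.82 (SD 0.13) at 28 dpn and 0.72 (SD 0.07) at 188 dpn. After quantile normalization 1 of these tests passed, the step from 1 dpn to 28 dpn, with a shift of -0.30 (exact permutation p = 0.0152, adjusted p = 0.0284).

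Between that pair and the other PYGM probe sets the differences shrank once past 1 dpn. Ssc.19476.2.A1_s_at stood 5.27 (SD 0.17) above Ssc.19476.1.S1_at at 94 dpc, 5.90 (SD 0.52) at 1 dpn, 2.53 (SD 0.18) at 28 dpn and 2.35 (SD 0.21) at 188 dpn, on the log2 scale within arrays. Over the 4 such pairs the shift from 94 dpc to 28 dpn was -1.94 to -2.74 and that from 1 dpn to 28 dpn -2.30 to -3.37, each without overlap between animals (exact permutation p = 0.00216, the smallest that 6 against 6 can give, adjusted p = 0.0065). Ssc.19476.2.A1_s_at and Ssc.18344.1.S1_at also drew closer, from a difference of 0.73 (SD 0.03) at 94 dpc to 0.03 (SD 0.12) at 28 dpn (shift -0.69, exact permutation p = 0.00216, adjusted p = 0.0065). Between 28 dpn and 188 dpn 0 of the 6 pairs passed, with 1 at an unadjusted exact permutation p under 0.05 (Ssc.18344.1.S1_at against Ssc.19476.1.S1_at, shift -0.22, p = 0.0381). With only the even arrays of 1 dpn the shifts of the 4 pairs from 1 dpn to 28 dpn were -1.91 to -2.77, and 2 against 6 arrays cannot give an exact p under 0.0714.

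At 28 dpn and 188 dpn the PYGM probe sets of small change were near the top of the array. At 28 dpn Ssc.19476.2.A1_s_at had 38 to 46 probe sets brighter than itself and Ssc.18344.1.S1_at 26 to 61, of 23999, against 250 to 311 for Ssc.18344.2.A1_at and 372 to 486 for Ssc.19476.1.S1_at. PGM1 was in the same range as the first pair, with 34 to 54 brighter probe sets at 28 dpn. The highest signal on any array was 111760. Between 54 and 87 probe sets exceeded a signal of 50000 on the arrays of 28 dpn and 188 dpn, and 0 to 12 on those of 94 dpc. Whether signals near the top of the scale compressed the change of these probe sets was not tested.

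The calls of the members stood beside those of the whole array as follows. Into 1 dpn 6 of the 7 were called higher and 0 lower, against 10.9% of all probe sets called higher and 21.7% lower. In the step to 28 dpn all 7 were called higher, against 13.9% higher and 8.39% lower over the array. After 28 dpn 1 of 7, PHKB, was called higher and 0 lower, against 3.65% and 8.2%. The direct comparison of 28 dpn with 94 dpc, which uses no array of 1 dpn in its means, called all 7 higher, against 13.1% higher and 17.2% lower. The comparison of 188 dpn with 94 dpc also called all 7 higher, against 13.6% and 22.5%, with folds of 5.85 for PGM1, 7.62 for GYG1, 10.7 for PHKB and 6.31 to 47.7 for PYGM. The array-wide split depends on the scaling: the higher and lower shares were 14.3% and 15.8% into 1 dpn with quantile normalization and 19.2% and 14.1% with median centring. The same shares were 11% and 11.1%, or 9.17% and 13.9%, from 1 dpn to 28 dpn. They were 4.77% and 6.01%, or 7.18% and 4.77%, after 28 dpn, and 17.2% and 18.1%, or 21.3% and 16.6%, from 94 dpc to 188 dpn. Comparisons that share a stage share its samples, so these counts are not independent of one another. The 7 probe sets are not independent either, since 4 of them measure PYGM. The shares of the whole array also include dim probe sets.

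**Figure D3:**
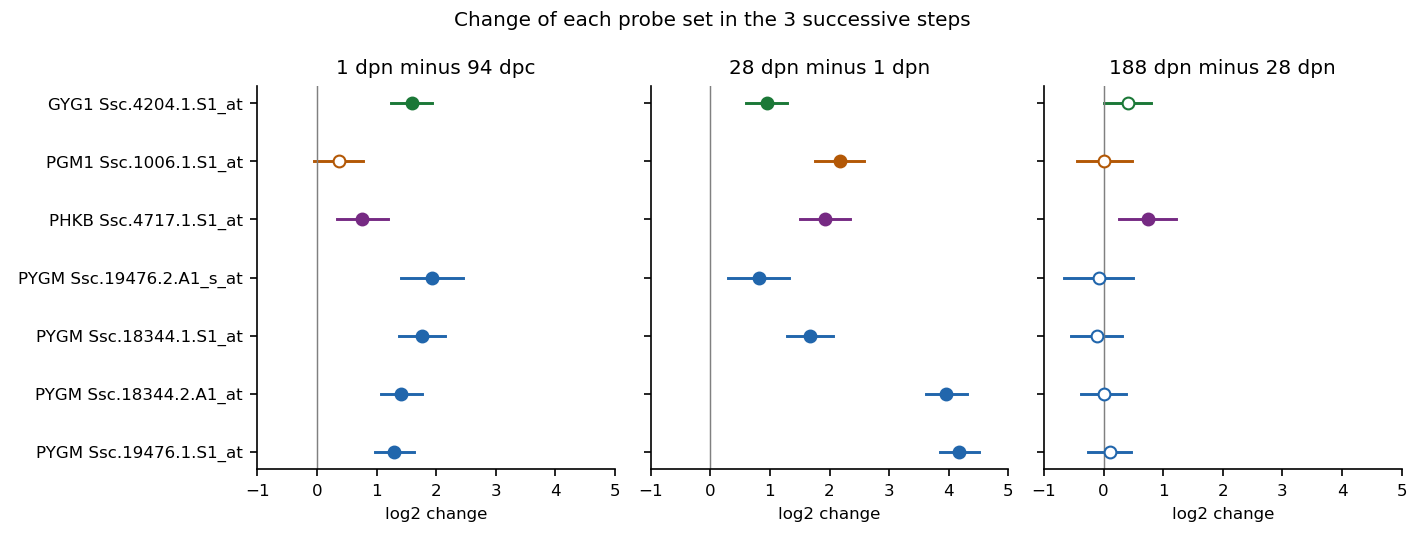
Log2 change of each probe set in the 3 successive steps, with 95% intervals from the limma fit; filled points were called at an adjusted p under 0.05 and open points were not. In the first step PGM1 alone is open, in the second all 7 are filled, and in the last only PHKB is filled.

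Fewer muscle fibres in a sample and less transcript per fibre cannot be told apart in these bulk samples. The summed muscle markers were higher at the same stages as the members, and their part in the result was not tested. Summed endothelial markers were 11000 to 13739 at 94 dpc and 6338 to 9388 at 28 dpn (5 of 5 markers measured, all 5 above background). Among them VWF went the other way, from a mean of 576 to 957. Summed fibroblast markers were 26457 to 33641 and 12911 to 25107 (4 of 5 measured, all 4 above background). Summed smooth muscle markers were 18188.4 to 25621.9 and 13790.1 to 20990.5 (3 of 4 measured). These ranges overlapped, as did those of the liver markers given above. Not every list was lower at 28 dpn. Summed adipocyte markers were 2763 to 5922 at 94 dpc and 4404 to 9370 at 28 dpn (3 of 5 measured). Summed macrophage markers were 1932 to 2474 and 2060 to 8562 (3 of 5 measured). The part of these markers was not tested either.

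The even and low arrays of 1 dpn gave different sizes for most members. The values of the 2 even arrays lay below those of the 4 low arrays for GYG1 (4570 and 6128 against 7420 to 10238), for PGM1 and for 3 PYGM probe sets, of which Ssc.19476.2.A1_s_at read 15425 and 20538 against 46735 to 51451. They overlapped for PHKB and for PYGM Ssc.18344.2.A1_at (746 and 1398 against 1098 to 1398). Into 1 dpn the even arrays gave log2 0.94 to 1.22 for the 4 PYGM probe sets (adjusted p from 1.92e-04 to 0.0014) and 1.12 for GYG1 (SE 0.17, adjusted p = 1.10e-04), so 5 of the 6 calls held and that of PHKB did not. The low arrays gave 1.48 to 2.41 for PYGM and 1.82 for GYG1.

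Of the 7 probe sets, PYGM Ssc.19476.2.A1_s_at moved furthest with the choice of arrays. Its step from 1 dpn to 28 dpn was log2 0.81 (adjusted p = 0.0213) with all arrays, 1.77 (SE 0.20, adjusted p = 1.72e-05) with the even arrays and 0.33 (SE 0.14, adjusted p = 0.0954) with the low arrays. Without replicate 6 of 1 dpn it was 0.66 and no longer called (adjusted p = 0.0536). The call was also lost with median centring (log2 0.61, adjusted p = 0.0674), with array weights (0.58, adjusted p = 0.0632) and when only these 2 stages were fitted (adjusted p = 0.0916). The other 3 PYGM probe sets, PGM1, GYG1 and PHKB were called in this step with either set of arrays. Summed muscle markers were 219374 and 236252 on the even arrays and 264378 to 320683 on the low ones. The number of probe sets above a signal of 50000 was 2 and 37 on the even arrays and 65 to 96 on the low ones. Neither was tested as a source of the difference.

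**Figure D4:**
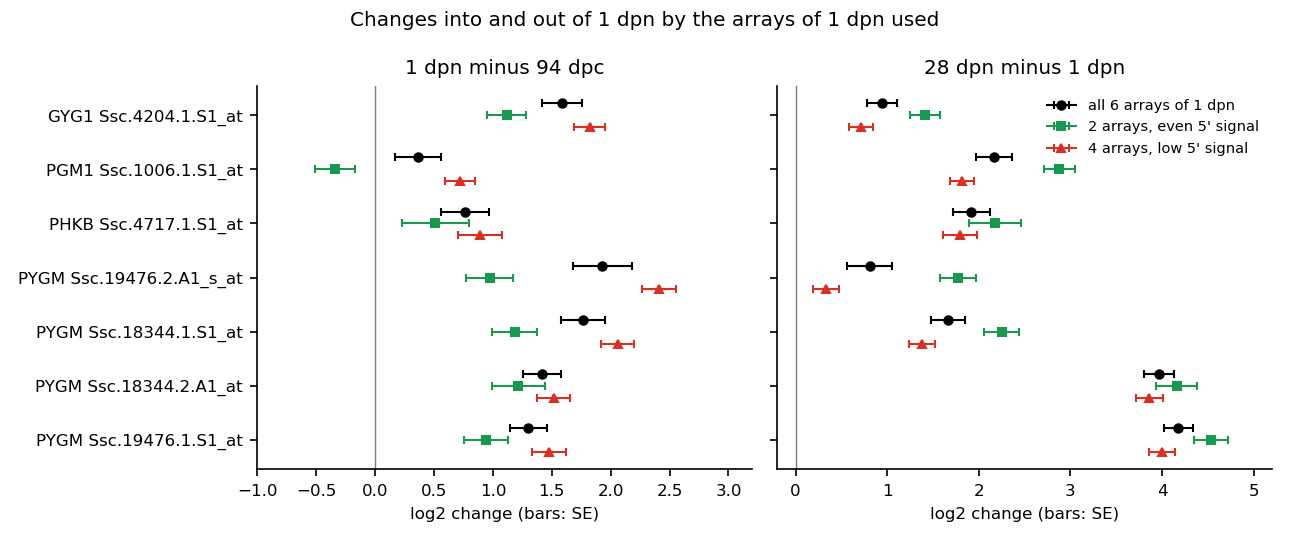
Log2 change into 1 dpn and out of it for each probe set (bars: SE), with all 6 arrays of 1 dpn, the 2 even arrays or the 4 low arrays. The 3 estimates lie closest for PYGM Ssc.18344.2.A1_at (1.22 to 1.51 into 1 dpn) and furthest apart for PYGM Ssc.19476.2.A1_s_at (0.97 to 2.41).

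GYG1 and PGM1 differed in when they rose, and for PYGM the comparison depended on the probe set. Within arrays, with Ssc.19476.2.A1_s_at for PYGM, the log2 difference of PYGM and PGM1 shifted by 1.56 from 94 dpc to 1 dpn and by -1.36 from 1 dpn to 28 dpn, and that of GYG1 and PGM1 by 1.22 and -1.23 (30 exact two-sided permutation tests over pairs of genes, p = 0.00216 and adjusted p = 0.0162 for each of these 4, without overlap). GYG1 thus rose more than PGM1 into 1 dpn and less than PGM1 from 1 dpn to 28 dpn. For PYGM the second shift did not extend to all probe sets: from 1 dpn to 28 dpn Ssc.18344.2.A1_at rose by log2 3.96 and Ssc.19476.1.S1_at by 4.18, both above the 2.17 of PGM1, while Ssc.18344.1.S1_at rose by 1.67. On the even arrays alone the same shifts were 1.32 and -1.11 for PYGM and 1.46 and -1.47 for GYG1, again without overlap. These shifts rest on 2 arrays of 1 dpn and were not tested, and 2 against 6 arrays cannot give an exact p under 0.0714. Between 94 dpc and 28 dpn the difference of GYG1 and PGM1 shifted by only -0.01 (SD 0.17 and 0.07, exact permutation p = 0.961).

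After 28 dpn the signals of GYG1 and PHKB shifted against those of PGM1 and of PYGM by Ssc.19476.2.A1_s_at. Up to 188 dpn the within-array difference shifted by 0.39 for GYG1 over PGM1, by 0.72 for PHKB over PGM1, by -0.48 for PYGM over GYG1 and by -0.82 for PYGM over PHKB. Each of these had no overlap between animals (exact permutation p = 0.00952, the smallest that 6 against 4 can give, adjusted p = 0.0286). PHKB and GYG1 did not separate beyond the spread (shift 0.34, exact permutation p = 0.0762, adjusted p = 0.127). PYGM and PGM1 differed by a shift of -0.10 (adjusted p = 0.183). PGM1 and this PYGM probe set were both near the top of the array at these stages, and whether compression there contributed to the shifts was not tested. The PYGM probe set of lowest signal, Ssc.19476.1.S1_at, changed by log2 0.10 in this step (95% interval -0.27 to 0.47), against 0.40 for GYG1 and 0.74 for PHKB, and was not tested against them within arrays. These pairwise tests were chosen after the values of the genes were known.

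The 3 genes whose profile over the 22 arrays was most like that of each member were found by Pearson correlation of log2 signals with the brightest probe set of that member. By this measure PGM1 was closest to BUD23 (r = 0.986), to ADSSL1, the muscle adenylosuccinate synthase (r = 0.986), and to PYGM by Ssc.19476.1.S1_at (r = 0.980). PYGM was closest to EIF1 (r = 0.983), the muscle enolase ENO3 (r = 0.979) and the muscle creatine kinase CKM (r = 0.974). GYG1 was closest to PPP1R1A, an inhibitor of protein phosphatase 1 (r = 0.978), to PYGM by Ssc.18344.1.S1_at (r = 0.977) and to FAM162A (r = 0.971). PHKB was closest to PPP1CB, a catalytic subunit of protein phosphatase 1 (r = 0.975), to PYGM by Ssc.18344.2.A1_at (r = 0.968) and to TMOD4, which caps thin filaments in muscle (r = 0.968). All of these share the 4 stage steps and the same 22 arrays, so r describes a shared course and carries no test.

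Of 53 genes on lists of glycogen synthesis, breakdown, their control and glucose entry, 33 were measured, 29 of them besides the 4 members. At 28 dpn 14 of these 29 had risen from 94 dpc and 8 had fallen, against 13.1% and 17.2% of all probe sets, with a median change of log2 0.79 against 0.02 over all probe sets. Into 1 dpn 11 rose and 10 fell, against 10.9% and 21.7% of all probe sets, with a median of 0.11 against -0.08. In the step from 1 dpn to 28 dpn 11 rose and 3 fell, against 13.9% and 8.39%, with a median of 0.30 against 0.10. After 28 dpn 1 rose and 4 fell, against 3.65% and 8.2%, with a median of -0.06 against -0.12. Between 94 dpc and 188 dpn 13 rose and 9 fell, against 13.6% and 22.5%, with a median of 0.24 against -0.07. Each gene is given by its brightest probe set, whereas the shares cover all probe sets, dim ones included. Among the 11999 probe sets brighter than the median one, 2452 were called higher and 3741 lower from 94 dpc to 28 dpn. Their median change was log2 -0.15. Of the 21 calls into 1 dpn 10 held on the even arrays of 1 dpn. From 1 dpn to 28 dpn the calls of PPP1CA, PPP1R3E, PRKAB1 and PRKAB2 were lost on the even arrays. For PPP1CA the change there was log2 -0.004, against 0.99 with all arrays.

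Among the other genes of glycogen synthesis 2 of 3 were higher and 1 lower at 28 dpn than at 94 dpc. GYS1, the muscle glycogen synthase, rose from a mean signal of 595 (SD 151) at 94 dpc to 2683 (SD 1051) at 1 dpn and was 2050 (SD 689) at 28 dpn and 1599 (SD 210) at 188 dpn. Its rise to 1 dpn was 4.00-fold (log2 2.00, SE 0.34, adjusted p = 8.90e-05), or log2 1.12 with the even arrays of 1 dpn (adjusted p = 0.0691). Its difference from 1 dpn to 28 dpn did not pass (log2 -0.28, SE 0.34, adjusted p = 0.61), nor with the even arrays (log2 0.60, adjusted p = 0.39). The other 2 probe sets of GYS1 were below background at 94 dpc and 1 dpn, with means of 45.4 and 48.5 at 1 dpn. The one at 45.4 was above background later, with means of 132 at 28 dpn and 104 at 188 dpn. Unlike the brightest probe set, it was called higher from 1 dpn to 28 dpn (log2 1.31, SE 0.39, adjusted p = 0.0189). It was also called higher from 94 dpc to 28 dpn (log2 2.44, SE 0.39, adjusted p = 6.12e-05). The one at 48.5 stayed below background at every stage and was called in neither comparison. UGP2, which makes the glucose donor UDP-glucose, was 3.09-fold higher at 28 dpn than at 94 dpc (log2 1.63, SE 0.33, adjusted p = 6.68e-04). PGM2, a mutase related to PGM1, fell from 234 (SD 59.1) to 131 (SD 55.9), by log2 -0.83 (SE 0.26, adjusted p = 0.0199), a call lost after quantile normalization and without replicate 5 of 94 dpc or replicate 4 or 5 of 28 dpn.

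PYGL, the liver form of phosphorylase, was higher than at 94 dpc at 28 dpn. Its mean signal was 373 (SD 74.8), 445 (SD 127), 655 (SD 92.6) and 417 (SD 104) over the 4 stages. It was 1.74-fold higher at 28 dpn than at 94 dpc (log2 0.80, SE 0.19, adjusted p = 0.0029), and at 188 dpn did not differ from 94 dpc beyond the spread (log2 0.14, SE 0.21, adjusted p = 0.66).

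Among the other 5 genes of the phosphorylase kinase list 2 rose and 1 fell between 94 dpc and 28 dpn. The catalytic subunit PHKG1 was 50.4 (SD 22.5) at 94 dpc, below background, and 118 (SD 44.2) at 28 dpn (log2 1.06, SE 0.26, adjusted p = 0.0036). It stayed near background throughout: its arrays of 28 dpn ranged from 65.0 to 191.9, on both sides of it. Its mean at 188 dpn, 93.7, was again below. PHKA2, an alpha subunit known from liver, fell by log2 -0.93 (SE 0.23, adjusted p = 0.0038), and its 2 other probe sets fell as well (log2 -2.01 and -1.18). PHKG2, the catalytic subunit known from liver, gave log2 -0.27 (SE 0.23, adjusted p = 0.42). Of the calmodulins, which serve as the calcium-sensing subunit, CALM3 rose from 3294 (SD 318) at 94 dpc to 6458 (SD 2298) at 28 dpn and 14220 (SD 486) at 188 dpn, and was the 1 other gene called higher from 28 dpn to 188 dpn (log2 1.23, SE 0.23, adjusted p = 0.0014). The 6 probe sets of CALM3 disagreed, and between 94 dpc and 28 dpn 2 of them fell, from 2213 to 626 (log2 -1.80, adjusted p = 4.90e-08) and from 1347 to 530 (log2 -1.34, adjusted p = 1.48e-05). CALM2 fell to 1 dpn (log2 -0.95, adjusted p = 0.0013) and rose after it (log2 1.43, adjusted p = 4.49e-05). With the even arrays these changes were log2 -0.98 (adjusted p = 0.0161) and 1.46 (adjusted p = 0.0017).

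Of 14 phosphatase subunits and regulators 6 rose and 3 fell from 94 dpc to 28 dpn. PPP1R1A rose most, from 4505 (SD 693) to 16576 (SD 6226), 51679 (SD 7436) and 61598 (SD 5413) over the 4 stages, 11.4-fold by 28 dpn (log2 3.52, SE 0.20, adjusted p = 5.88e-11). The catalytic phosphatase subunits PPP1CB and PPP1CC rose by log2 1.19 (SE 0.22, adjusted p = 3.05e-04) and 1.16 (SE 0.26, adjusted p = 0.0017). The dimmer probe set of each rose further, by log2 2.77 (SE 0.25) for PPP1CB and 2.77 (SE 0.34) for PPP1CC. The AMP-activated protein kinase, an energy sensor that binds glycogen through its beta subunits, changed in its subunits in opposite directions. The beta subunit PRKAB2 rose from 136 (SD 25.4) to 1093 (SD 449), 6.99-fold (log2 2.80, SE 0.25, adjusted p = 2.44e-08), and the catalytic subunit PRKAA2 2.70-fold (log2 1.43, SE 0.28, adjusted p = 5.42e-04). The beta subunit PRKAB1 fell by log2 -1.04 (SE 0.14, adjusted p = 9.56e-06) and the gamma subunit PRKAG2 from 893 (SD 162) to 200 (SD 81.9), by log2 -2.16 (SE 0.27, adjusted p = 4.08e-06). PRKAG3, the gamma subunit known for its effect on glycogen content of pig muscle, was 196 (SD 53.1) at 94 dpc and 251 (SD 89.6) at 28 dpn, a difference of log2 0.30 that did not pass (SE 0.29, adjusted p = 0.48).

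STBD1, a glycogen-binding protein, fell before it rose. It dropped from 3720 (SD 351) at 94 dpc to 1120 (SD 428) at 1 dpn (log2 -1.79, SE 0.20, adjusted p = 7.17e-07) and rose to 7551 (SD 1518) at 28 dpn and 10929 (SD 2148) at 188 dpn. On the even arrays the fall was log2 -1.93 (adjusted p = 9.32e-06) and the rise to 28 dpn log2 2.93 (adjusted p = 2.72e-07). The second STBD1 probe set did not show the fall (1430 and 1553, log2 -0.10, adjusted p = 0.85) and rose after 1 dpn (log2 1.62).

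For glucose entry and glucose-6-phosphate 3 genes rose and 3 fell from 94 dpc to 28 dpn, each of the 6 measured. The isomerase GPI, which links glucose-6-phosphate to glycolysis, rose from 4960 (SD 268) to 41312 (SD 7326), 8.20-fold (log2 3.04, SE 0.20, adjusted p = 2.84e-10). SLC37A4, a glucose-6-phosphate transporter of the endoplasmic reticulum, rose 8.34-fold (log2 3.06, SE 0.25, adjusted p = 1.03e-08), by both of its probe sets. SLC2A4, the insulin-responsive glucose transporter, rose from 66.1 (SD 46.8), below background, to 227 (SD 49.6) (adjusted p = 0.0025), while its other 2 probe sets did not pass. The transporters SLC2A1 and SLC2A3 fell by log2 -0.89 (SE 0.26, adjusted p = 0.0120) and -0.99 (SE 0.25, adjusted p = 0.0044). The hexokinase HK1 fell by log2 -0.84 (SE 0.21, adjusted p = 0.0043) and further to 188 dpn (log2 -1.26, SE 0.24, adjusted p = 0.0013).

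**Figure D5:**
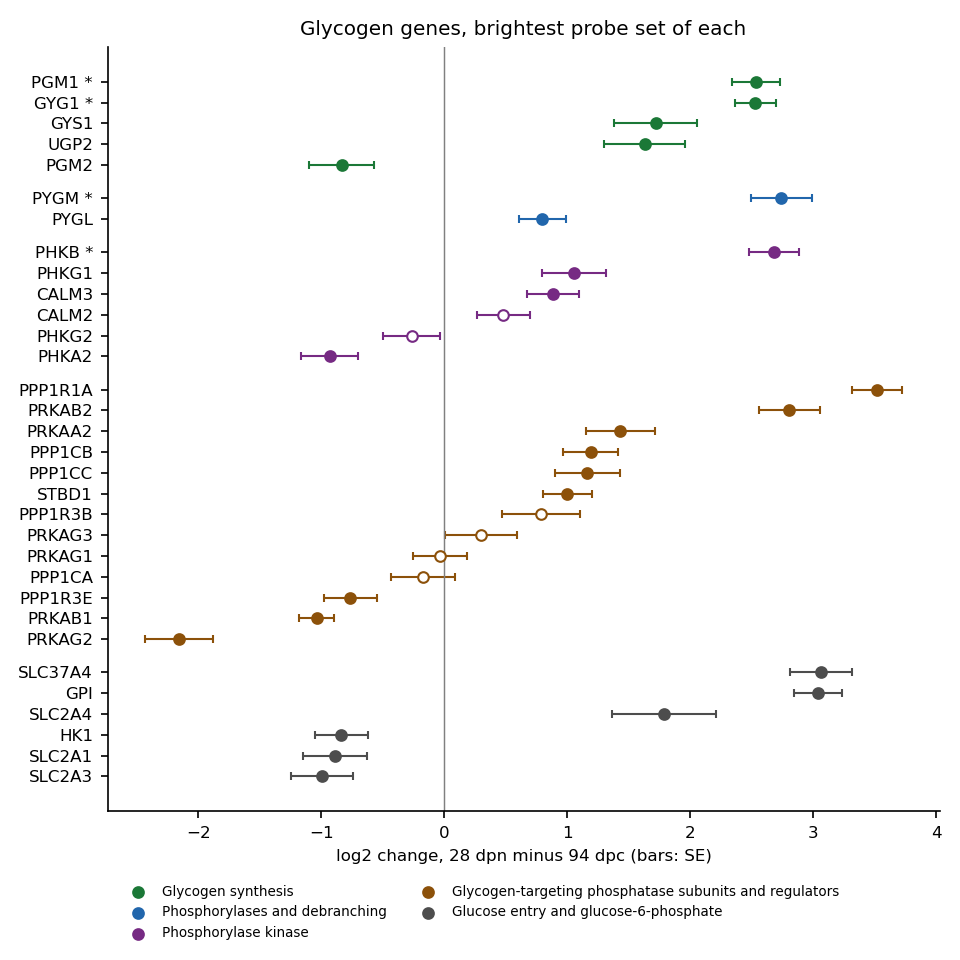
Log2 change from 94 dpc to 28 dpn (bars: SE) of the 32 glycogen genes measured above background, each by its brightest probe set, grouped by list, with filled points called at an adjusted p under 0.05 and an asterisk at the 4 members. The members lie between 2.53 and 2.74, to the right of all but 4 of the other genes, and PRKAG2 lies furthest left at -2.16. PYGM is drawn by Ssc.19476.2.A1_s_at, the smallest of its 4 changes. Its other probe sets, not drawn, changed by 3.43, 5.38 and 5.48.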

How the data were processed

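The authors deposited 1 intensity value for every probe set and sample, from Affymetrix arrays for the pig. GCOS 1.1.1 is named in the submitters' processing notes, and labelled cRNA was made from 0.5 µg of RNA, per the labels' protocols. The deposited intensity values were linear (1 to 111760), with a mean near 500 on every array after trimming 2% at each end. They were used as log2(signal + 16) without further normalization, so folds of dim probe sets are understated. Of 24123 probe sets 124 controls were left out. One symbol was given for 10069 of the rest, several for 198 and none for 13732.

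One mean per stage was fitted with limma 3.58.1 (R 4.3.3), tested on simulated data, with Benjamini-Hochberg adjustment over 23999 probe sets in each of an F test and 5 comparisons. Differences within arrays were tested with exact permutation tests (scipy 1.17.1). Background was the 95th percentile of 35 control probe sets with a median signal under 100, since the poly-A controls were bright (median 567.5).

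The members and lists were chosen with earlier results of these data known. All probe sets of the members were named, the 3 genes most like each member, and up to 6 called genes per list by size of change; PYGL, PHKG2, PRKAG3 and CALM2 were added after their values were seen. P-values treat animals as independent and are too small if littermates resemble each other. Alternatives were quantile normalization, median centring, pseudocounts of 1 and 64, trended and robust variances, array weights, only the stages compared, brighter probe sets, the GAPDH ratio as a covariate, the even arrays and each sample left out. The low arrays alone, the even arrays for the other glycogen genes and the tests between genes were added after the data were seen.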

Additional observations from a re-analysis of the deposited data

Results flagged for a closer look

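In 36 groups of 4 to 6 arrays, 4 held a highest or lowest array that stood apart from its neighbour by Dixon's criterion, which chance does in about 1 of 20 groups. For PYGM Ssc.19476.2.A1_s_at replicate 2 of 188 dpn read 66346, against 54753 for the next highest. The GAPDH 5′/3′ ratio of replicate 3 of 188 dpn was 1.14, the lowest of its stage. The EF1A 5′/3′ ratio was lowest in replicate 5 of 94 dpc (0.785, next 0.905) and in replicate 5 of 28 dpn (0.588, next 0.698).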

How the results depend on the processing

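The calls of the members in the F test and from 94 dpc to 28 dpn and to 188 dpn were 7 of 7 under every alternative run. From 94 dpc to 1 dpn the change of PGM1 turned negative after quantile normalization (-0.20), with the GAPDH ratio as a covariate (-0.26) and on the even arrays (-0.35), and leaving out replicate 1 or 6 of 1 dpn made it a call. From 28 dpn to 188 dpn 1 member was called, against 0 after quantile normalization, 2 with centring, 2 with only the even arrays, 2 with only the low arrays and 0 to 1 with a sample left out. In that step the changes near 0 changed sign: Ssc.18344.1.S1_at with centring (0.087), Ssc.18344.2.A1_at with quantile normalization (0.11), centring (0.20), array weights (0.008) and the covariate (0.022), Ssc.19476.2.A1_s_at with centring (0.12) and the covariate (0.01). With a sample left out PGM1 ranged from -0.034 to 0.061 and Ssc.18344.2.A1_at from -0.077 to 0.086. The cause was not tested. Of 30 tests between PYGM probe sets 16 passed, 16 to 20 with a sample left out and 10 on the even arrays, where 2 arrays cannot reach the threshold; after quantile normalization the shift of Ssc.18344.1.S1_at against Ssc.19476.1.S1_at from 94 dpc to 1 dpn was -0.21 rather than 0.47. Of the other glycogen genes 21 were called from 94 dpc to 1 dpn, 10 on the even arrays, and 5 from 28 dpn to 188 dpn, 2 after quantile normalization. Over all probe sets the number called from 1 dpn to 28 dpn was 5357, and 3347 when only these stages were fitted. The share of calls that were higher depended on scaling: into 1 dpn it was 33.5% as deposited, 47.4% with quantile normalization and 57.7% with centring, to 28 dpn 62.4, 49.8 and 39.7%, and to 188 dpn 30.8, 44.2 and 60.1%. From 94 dpc it was 43.2% to 28 dpn and 37.7% to 188 dpn, against 47.3 and 48.6% with quantiles and 49.5 and 56.2% with centring. Centring moved the median change to 0.18 in the step into 1 dpn and 0.20 from 94 dpc to 188 dpn. No paired analysis was possible because replicate numbers were given in accession order and pair no animals.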
